A study of Mus musculus with 23 samples.

Results

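A set of 10 genes of the extracellular matrix and of the proteolysis around cells was followed through all 23 libraries of a stroke experiment in mouse brain macrophages. They were the rows of the deposited counts table with the symbols Fn1, Sdc3, Serpinf1, Adam33, Plau, Plaur, Mmp14, Mmp9, Timp2 and Tgm2, so that 10 of the 33280 genes in the table are described. All mice were Ccr2creERT2/+ R26tdT/tdT, in which cells that express the monocyte receptor gene Ccr2 at the time of tamoxifen, and their descendants, carry the red reporter tdTomato (tdT). BLZ945 groups received this inhibitor of the CSF-1 receptor at 200 mg/kg for 7 days, and CTL groups received vehicle. Every mouse received tamoxifen (2 mg per day), had a thrombin-induced stroke 8 weeks after the gavage and was analyzed 1 day after the stroke, so the effect of stroke itself was not compared here. Sorted populations were microglia (MG, CD206-) and subdural CNS-associated macrophages (sdCAMs, CD206int-high), which live along the meninges and around vessels. Both came from a CD45int CD11b+ gate, and the study's methods also sorted out cells with Ly6C, Ly6G or CD11c and removed the choroid plexus. There were 5 libraries each of MG and of tdT- sdCAMs from either treatment, and 3 of tdT+ sdCAMs, which were sorted from BLZ945 mice, so that the 5 groups are named MG or tdT with their treatment. CTL libraries came from 1 mouse each, whereas BLZ945 libraries pooled 2 mice, except those named F2, which held 1. Mouse and pool labels (F1, F2, F3, M1, M2) were shared between populations of the same treatment, and an animal number occurred in the library names of both F2 and M1 of the BLZ945 arm, so these libraries may share a mouse. BLZ945 treatment and pooling therefore cannot be told apart, apart from the F2 libraries.

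Urokinase, encoded by Plau, turns plasminogen into plasmin at the cell surface, where its receptor, encoded by Plaur, holds it. Plasmin and metalloproteinases cut matrix proteins, inhibitors of the TIMP family block metalloproteinases, and fibronectin and the transglutaminase that crosslinks it add to the matrix. Around brain vessels, matrix metalloproteinases and plasminogen activators are known for their part in opening the basement membrane after ischemia.

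The sorted populations carried the markers of their labels. Summed levels of 5 microglia markers (P2ry12, Tmem119, Sall1, Siglech, Sparc) were 9006 to 15058 CPM (counts scaled to library size with TMM factors) in MG and 539 to 1164 CPM in sdCAM libraries. For 6 sdCAM markers (Mrc1, Lyve1, Pf4, Cd163, Folr2, Ms4a7) the sums were 9.93 to 47.8 CPM in MG and 8405 to 14434 CPM in sdCAMs. Total counts per library were 9433960 to 13276081, and 3 counts, taken as the smallest level told from 0, equalled 0.226 to 0.318 CPM, which covers counting error only. In such bulk libraries, fewer cells that express a gene and less RNA per cell cannot be told apart. Library tdT- BLZ945 F1 stood apart in its monocyte markers (Ly6c2, Ccr2, Plac8, Chil3, Vcan), which summed to 217 CPM with none of the 5 at 0, against 0 to 100 CPM in the other tdT- BLZ945 libraries. The choroid plexus markers Ttr, Folr1, Kl and Clic6 summed to 548 CPM in MG, 153 CPM in tdT- and 1769 CPM in tdT+ libraries of BLZ945 pool F3.

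In MG after BLZ945, Fn1 and Sdc3 rose and Serpinf1 fell, and these were 3 of the 8 members tested, against 0.408% of all 11264 tested genes called in that comparison. Groups of 5 libraries did not overlap for the same 3 members, and this was so for 3.09% of all tested genes. The members and the wider lists below were chosen with earlier results of these data known. Their counts beside the shares over all genes are a description and no test of the set. Adam33 and Mmp9 were too low in MG to enter the test. In the edgeR models of the compared groups no member was called among the sdCAM groups. DESeq2 called 1 or 2 in each comparison, and the edgeR model of all 23 libraries called Serpinf1 in tdT+ cells against both tdT- groups (adjusted p = 0.016 and 0.0393). Between sdCAMs and MG, 6 of 10 members were called in CTL mice (25.6% of all tested genes), 6 of 10 for tdT- cells in BLZ945 mice (32.4%) and 6 of 10 for tdT+ cells in BLZ945 mice (18.9%). Adam33 and Mmp9 entered these tests through their sdCAM counts alone and so had to differ, and with at least 10 counts required in every library, which leaves them out, 4 members were called in each. Mmp9 and Adam33 were higher, and Tgm2 and Plaur lower, in sdCAMs in all 3 of these comparisons, which are not independent, since the MG BLZ945 libraries served in 2 of them. The plot of the 10 genes by library gives the whole data set.

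**Figure D1:**
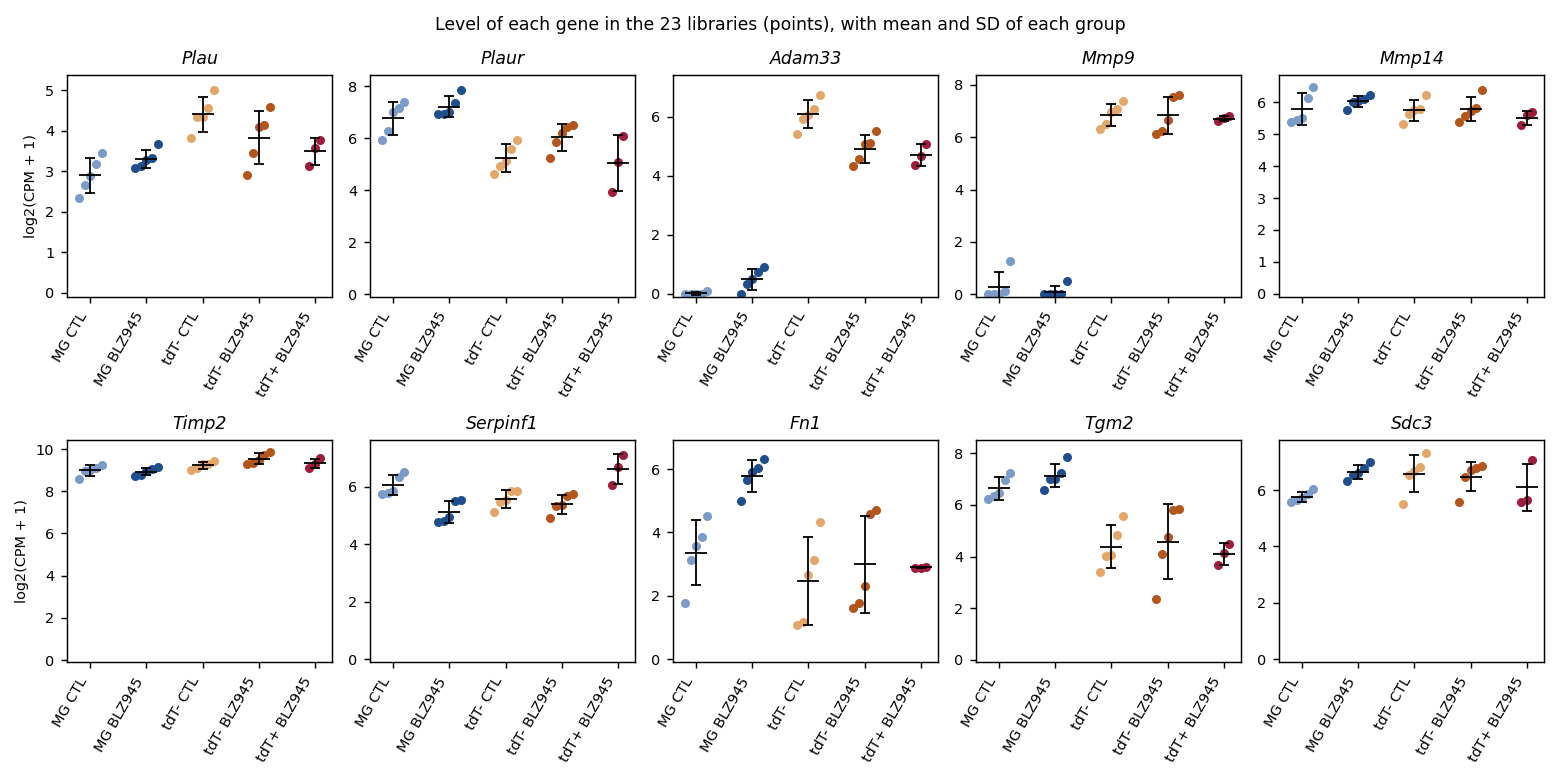
Level of the 10 genes in each library as log2(CPM + 1), by group (points are libraries, the horizontal bar and whiskers are mean and SD, n = 5 or 3). Adam33 and Mmp9 lie near 0 in the 10 MG libraries and far above them in all 13 sdCAM libraries, and Fn1 in MG BLZ945 lies above all 18 other libraries.

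Levels were compared between genes as CPM per kb of exon, with union exon lengths from GENCODE M21 on GRCm38. By this measure Timp2 was the highest member in all 5 groups, at 126 CPM per kb in MG BLZ945 to 194 CPM per kb in tdT- BLZ945. In MG CTL the next were Plaur (44.0 CPM per kb), Serpinf1 (28.5 CPM per kb) and Tgm2 (22.3 CPM per kb). In tdT- CTL they were Mmp9 (33.3 CPM per kb), Serpinf1 (20.2 CPM per kb) and Sdc3 (17.0 CPM per kb). Fn1 was the lowest member in all 3 sdCAM groups, between 0.55 CPM per kb in tdT+ and 0.97 CPM per kb in tdT- BLZ945.

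Promoters of 5 of the 10 members were in the RefSeq promoter table (GRCm38.p6, 250 bases before to 50 after the start), those of Sdc3, Serpinf1, Plaur, Mmp14 and Timp2. The 3 members below are shown because they were called in opposite directions in MG (Sdc3 and Serpinf1) or were lower in sdCAMs in every comparison with MG (Plaur). Capitals mark matches, on either strand, to an AP-1 motif (TGANTCA), a GC box (GGGCGG) or a C/EBP motif (TTGCNNAA), as read along the strand of the gene.
Sdc3: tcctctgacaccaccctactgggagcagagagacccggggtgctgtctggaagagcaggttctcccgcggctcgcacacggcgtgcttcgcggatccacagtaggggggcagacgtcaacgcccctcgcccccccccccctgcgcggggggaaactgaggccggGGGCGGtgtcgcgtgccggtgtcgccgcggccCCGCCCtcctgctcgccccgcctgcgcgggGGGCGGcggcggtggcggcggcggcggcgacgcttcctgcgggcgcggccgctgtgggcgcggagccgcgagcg
Serpinf1: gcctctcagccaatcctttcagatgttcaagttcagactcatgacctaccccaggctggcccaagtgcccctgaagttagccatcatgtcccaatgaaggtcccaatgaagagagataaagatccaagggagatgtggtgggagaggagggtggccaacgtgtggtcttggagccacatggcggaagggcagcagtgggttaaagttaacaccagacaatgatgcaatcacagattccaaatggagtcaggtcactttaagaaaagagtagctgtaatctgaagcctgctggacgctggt
Plaur: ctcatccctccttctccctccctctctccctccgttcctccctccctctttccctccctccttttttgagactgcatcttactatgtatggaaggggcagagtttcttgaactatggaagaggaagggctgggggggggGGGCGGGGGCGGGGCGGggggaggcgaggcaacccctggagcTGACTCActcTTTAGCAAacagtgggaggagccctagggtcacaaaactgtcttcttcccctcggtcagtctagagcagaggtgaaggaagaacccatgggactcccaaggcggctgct
The Sdc3 window (chr4:130792287-130792586, plus strand) held 3 GC boxes at 77.7% G and C. The Plaur window (chr7:24462233-24462532, plus strand) held 3 GC boxes in a row, of which the last 2 share a base, and, downstream of them, 1 AP-1 and 1 C/EBP match that do not overlap. In the Serpinf1 window (chr11:75422574-75422873, minus strand), at 50.7% G and C, none of the 3 motifs matched. Of the 32544 distinct promoters in the table, 7.79% held the AP-1, 35.9% the GC box and 10.8% the C/EBP letters, and the Mmp14 and Timp2 windows held GC boxes only (2 and 1).

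Plau (chromosome 14, 20836660 to 20843385, plus strand, GRCm38) was a gene of low level and was highest in sdCAMs of CTL mice. It stood at 8.06, 4.10, 5.31, 6.36 and 9.97 CPM in MG CTL (M1, F1, F2, M2 and F3) and at 22.5, 19.2, 19.1, 13.1 and 30.9 CPM in tdT- CTL of the same mice. Every tdT- library was above every MG library, with a log2 fold change of 1.62 (95% interval 0.89 to 2.35, SE 0.35, adjusted p = 0.0013 by the quasi-likelihood test of edgeR, adjusted after Benjamini and Hochberg as are all adjusted p below unless DESeq2 is named). After BLZ945 the groups overlapped, with 7.51 to 11.6 CPM in MG, 6.44 to 22.9 CPM in tdT- and 7.72 to 12.7 CPM in tdT+ libraries. The log2 difference of tdT- from MG was then 0.70 (SE 0.34, adjusted p = 0.13), and that of tdT+ from MG was 0.24 (SE 0.47, adjusted p = 0.789). Of 10 fits of the former that left out a library each (0.46 to 0.88, adjusted p up to 0.329), 1 was called, that without tdT- BLZ945 M1 (adjusted p = 0.0417). Whether the tdT- difference changed with BLZ945 was tested as an interaction, which was -0.92 (SE 0.49, adjusted p = 0.618).

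Plaur (chromosome 7, 24462484 to 24475968, plus strand) ran the other way to its ligand. It reached 76.7, 128, 60.7, 168 and 142 CPM in MG CTL (M1, F1, F2, M2 and F3) and 46.5, 33.9, 23.9, 60.7 and 29.2 CPM in tdT- CTL, where the highest tdT- library (M2) and the lowest MG library (F2) were equal to 3 digits and all others were apart. In BLZ945 mice it was 127, 121, 230, 121 and 162 CPM in MG (F1, F2, F3, M1 and M2), 85.8, 36.7, 90.3, 56.4 and 71.7 CPM in tdT- and 14.3, 66.5 and 33.2 CPM in tdT+ libraries (F2, F3 and M2). The receptor transcript was lower in sdCAMs by a log2 fold change of -1.57 in CTL (SE 0.31, adjusted p = 0.000451), -1.15 for tdT- in BLZ945 (SE 0.30, adjusted p = 0.00553) and -1.99 for tdT+ in BLZ945 (SE 0.44, adjusted p = 0.0048). Without tdT+ F3 the last was -2.68 (adjusted p = 0.00109). In all 3 BLZ945 brains or pools with the 3 populations, the order was MG, then tdT-, then tdT+. The difference of tdT+ from tdT- itself was -0.86 on the log2 scale (SE 0.45, adjusted p = 0.763) and did not pass the test. Without tdT+ F3 it was -1.53 (SE 0.47, adjusted p = 0.556). The test was not passed either by the BLZ945 effect on Plaur, at 0.39 in MG (SE 0.25, adjusted p = 0.541) and 0.83 in tdT- cells (SE 0.38, adjusted p = 0.898).

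Mmp9 (chromosome 2, 164940780 to 164955850, plus strand) encodes gelatinase B, a secreted protease that cuts basement membrane collagen. Its level was 164, 124, 89.3, 133 and 79.1 CPM in tdT- CTL (M1, F1, F2, M2 and F3), 74.5, 193, 68.8, 101 and 183 CPM in tdT- BLZ945 (F1, F2, F3, M1 and M2) and 105, 96.3 and 110 CPM in tdT+ BLZ945 (F2, F3 and M2). Among the 5 MG CTL libraries it had 18 counts in all, 17 of them in M1, and among the 5 MG BLZ945 libraries it had 5 counts, all in F3. As a ratio of pooled counts, tdT- CTL exceeded MG CTL 392-fold (95% counting interval 248 to 661), and the edgeR adjusted p was 6.26e-09. Such intervals cover counting error only and leave out the spread between mice. Mmp9 entered this test and those below through its sdCAM counts alone and had to differ. Without M1 of MG CTL, which leaves 1 MG count, the ratio was 5640 (1010 to 223000). In BLZ945 mice the ratio to MG was 1380 for tdT- (590 to 4240, adjusted p = 3.02e-09) and 1180 for tdT+ cells (505 to 3630, adjusted p = 4.3e-08). Without F3 of MG BLZ945 no MG count is left, and Mmp9 was at least 462.5-fold higher in tdT- and at least 387-fold higher in tdT+ cells by the floor of 3 counts per library. Mmp9 is also known from neutrophils, whose 6 listed markers (S100a8, S100a9, Retnlg, Ngp, Camp, Ly6g) summed to 0 to 74.1 CPM in sdCAM and 0 to 49.3 CPM in MG libraries. The highest sdCAM sum was that of tdT- BLZ945 F1, and all 6 had 0 counts in F2 and F3 of tdT- CTL. Neutrophils carry Ly6G, which the sort excluded, and their part in the Mmp9 values was not tested. The 3 sdCAM groups overlapped, and BLZ945 against CTL in tdT- cells differed by a log2 value of 0.09 (95% interval -0.52 to 0.70, adjusted p = 1).

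Adam33 (chromosome 2, 131050591 to 131063814, minus strand) encodes a membrane-anchored metalloproteinase of the ADAM family. It was 106, 59.6, 75.8, 42.3 and 66.8 CPM in tdT- CTL (M1, F1, F2, M2 and F3), 33.2, 22.9, 45.1, 33.4 and 19.1 CPM in tdT- BLZ945 (F1, F2, F3, M1 and M2), and 19.5, 32.9 and 24.9 CPM in tdT+ BLZ945 (F2, F3 and M2). All tdT+ libraries lay below all tdT- CTL libraries, and only M2 of tdT- CTL fell within the range of tdT- BLZ945. The log2 difference from tdT- CTL was -1.18 in tdT- BLZ945 (SE 0.29, unadjusted p = 0.00103, adjusted p = 0.436) and -1.44 in tdT+ BLZ945 (SE 0.35, unadjusted p = 0.000896, adjusted p = 0.145), so neither passed the edgeR test over all genes. With DESeq2 both did, at adjusted p = 0.0254 and 0.00449. Both comparisons used the same tdT- CTL libraries. The dendritic cell marker list moved in the same direction, since its 5 genes (Flt3, Zbtb46, Xcr1, Clec9a, Cd209a) summed to 222 to 782 CPM in tdT- CTL, 30.9 to 161 CPM in tdT- BLZ945 and 34.7 to 84.5 CPM in tdT+ libraries, and its part in the Adam33 values was not tested. The gate excluded CD11c, which dendritic cells carry. Cd209a made up most of that sum except in tdT+ M2, and Xcr1 was at 0 in all 13 sdCAM libraries.

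In MG, Adam33 was at the limit of detection, with 1 count over the 5 CTL libraries and 0, 8, 3, 10 and 5 counts in BLZ945 (F1, F2, F3, M1 and M2). The pooled ratio of tdT- CTL to MG CTL was 4180 (95% counting interval 749 to 165000, edgeR adjusted p = 3.19e-11), and that of MG BLZ945 to MG CTL was 27.0 (4.44 to 1110). These intervals cover counting error only, not the spread between mice, so no change in MG is read from the latter. Without M1 of MG CTL no MG CTL count is left, and tdT- CTL was at least 275.1-fold higher by the floor of 3 counts per library. In BLZ945 mice Adam33 was higher than in MG by a log2 fold change of 6.06 in tdT- (SE 0.49, adjusted p = 3.55e-09) and 5.81 in tdT+ cells (SE 0.64, adjusted p = 1.07e-05). The interaction, the BLZ945 effect in tdT- cells minus that in MG, was -5.23 (SE 0.94, adjusted p = 0.0456), in a test where 0.0394% of all genes were called. Adam33 entered it through its sdCAM counts, its MG side compares counts near 0, and no difference is read from it. With mouse or pool as a block the adjusted p was 0.219. It held in 7 of 20 fits that left out a library each (-6.56 to -4.85, adjusted p up to 0.114), and it rests on the 26 counts in MG BLZ945 and 1 in MG CTL.

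Mmp14 (chromosome 14, 54431612 to 54445364, plus strand), the gene of a membrane-type metalloproteinase that cuts collagen and activates other metalloproteinases, was called in none of the 8 comparisons. Its group means ran from 45.4 ± 6.73 CPM (SD, n = 3) in tdT+ BLZ945 to 64.9 ± 7.81 CPM (SD, n = 5) in MG BLZ945, and neighbours in this order overlapped throughout. The interval of the log2 difference between BLZ945 and CTL was -0.24 to 0.58 in MG and -0.43 to 0.57 in tdT- cells. For tdT+ cells against MG of BLZ945 mice all 3 libraries (37.8, 47.5 and 50.8 CPM) lay below all 5 MG libraries (53.1 to 74.7 CPM), with a log2 difference of -0.51 (SE 0.24, adjusted p = 0.166).

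Timp2 (chromosome 11, 118301069 to 118355740, minus strand) encodes a secreted inhibitor that binds both soluble and membrane-type metalloproteinases. It was 534, 562, 491, 434 and 427 CPM in MG BLZ945 (F1, F2, F3, M1 and M2) and 629, 843, 719, 939 and 642 CPM in tdT- cells of the same brains. Every tdT- library exceeded every MG library, and the log2 fold change was 0.63 (95% interval 0.35 to 0.92, SE 0.14, adjusted p = 0.00123). In CTL mice the ranges overlapped, at 385 to 610 CPM in MG and 522 to 699 CPM in tdT- cells (log2 difference 0.24, SE 0.14, adjusted p = 0.239). The interaction was 0.40 (SE 0.19, adjusted p = 0.591), so the BLZ945 difference is not shown to exceed that of CTL mice. The tdT+ libraries held 754, 546 and 629 CPM, each below tdT- of the same brain, and neither their difference from tdT- (-0.25, SE 0.16, adjusted p = 0.861) nor that from MG (0.40, SE 0.16, adjusted p = 0.102) passed.

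Serpinf1 (chromosome 11, 75409769 to 75422701, minus strand) encodes PEDF, a secreted serpin without protease inhibitor activity that is known as an antiangiogenic and neurotrophic factor. In MG CTL it was 80.2, 57.7, 89.9, 54.7 and 53.4 CPM (M1, F1, F2, M2 and F3), and in MG BLZ945 it was 30.0, 45.7, 27.2, 44.9 and 26.5 CPM (F1, F2, F3, M1 and M2). The lowest CTL library lay above the highest BLZ945 library. The log2 fold change was -0.96 (95% interval -1.37 to -0.55, SE 0.19, adjusted p = 0.0444), a call that stood close to the threshold and held in 4 of 10 fits that left out a library each. It was lost without M1, F1 or F2 of MG CTL and without F1, F3 or M2 of MG BLZ945, at log2 values of -1.01 to -0.84 and adjusted p of 0.07 to 0.125. It was also lost with sex as covariate (adjusted p = 0.0508) and with a model of all 23 libraries (adjusted p = 0.175). Vascular markers were lower in MG BLZ945 too, in ranges that overlapped, with 6 endothelial genes (Cldn5, Cdh5, Flt1, Pecam1, Slco1a4, Ly6c1) at 19.3 to 28.5 CPM in CTL and 5.43 to 21.9 CPM in BLZ945. The 6 mural genes (Pdgfrb, Rgs5, Kcnj8, Acta2, Myh11, Tagln) summed to 6.83 to 21.4 CPM and 1.36 to 9.19 CPM. Their part in the Serpinf1 values was not tested.

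Among repopulated sdCAMs Serpinf1 had its highest level in tdT+ cells, at 101, 138 and 65.7 CPM (F2, F3 and M2). In tdT- cells it was 39.1, 49.97, 52.8, 29.0 and 39.9 CPM in BLZ945 (F1, F2, F3, M1 and M2) and 43.7, 34.4, 56.9, 45.7 and 57.2 CPM in CTL (M1, F1, F2, M2 and F3). All 3 tdT+ libraries exceeded all 10 tdT- libraries and, in each of the 3 brains or pools, the tdT- and the MG library too. Against MG BLZ945 the log2 fold change was 1.55 (95% interval 0.95 to 2.16, SE 0.28, adjusted p = 0.00122), which passed. Against tdT- BLZ945 it was 1.25 (SE 0.27, unadjusted p = 0.000258, edgeR adjusted p = 0.0962, DESeq2 adjusted p = 0.00168), and against tdT- CTL it was 1.10 (SE 0.27, unadjusted p = 0.000873, edgeR adjusted p = 0.143, DESeq2 adjusted p = 0.00662). Pairing tdT+ with tdT- by mouse or pool gave an adjusted p of 0.208, and of 8 fits that left out a library each (0.98 to 1.498, adjusted p up to 0.522) 1 was called, that without tdT+ M2 (adjusted p = 0.0438). Serpinf1 is also known from fibroblasts, whose 6 listed markers (Col1a1, Col1a2, Col3a1, Dcn, Lum, Pdgfra) summed to 17.8 to 23.5 CPM in tdT+ and 15.5 to 62.8 CPM in tdT- BLZ945 libraries. The sort gated on CD45 and CD11b. Mural markers summed to 31.0, 2.97 and 50.8 CPM in tdT+ cells (F2, F3 and M2). In tdT- cells of the same brains or pools they summed to 21.6, 8.13 and 3.31 CPM. In the same order, endothelial markers summed to 32.6, 46.5 and 26.5 CPM in tdT+ and 44.7, 20.4 and 23.2 CPM in tdT- cells. Choroid plexus markers summed to 0, 1769 and 0.400 CPM in tdT+ and 0.216, 153 and 24.7 CPM in tdT- cells. Serpinf1 was highest in tdT+ F3. The part of all these cells in the Serpinf1 values was not tested. The lines that join libraries of a brain show the same order of Serpinf1 in all 3.

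**Figure D2:**
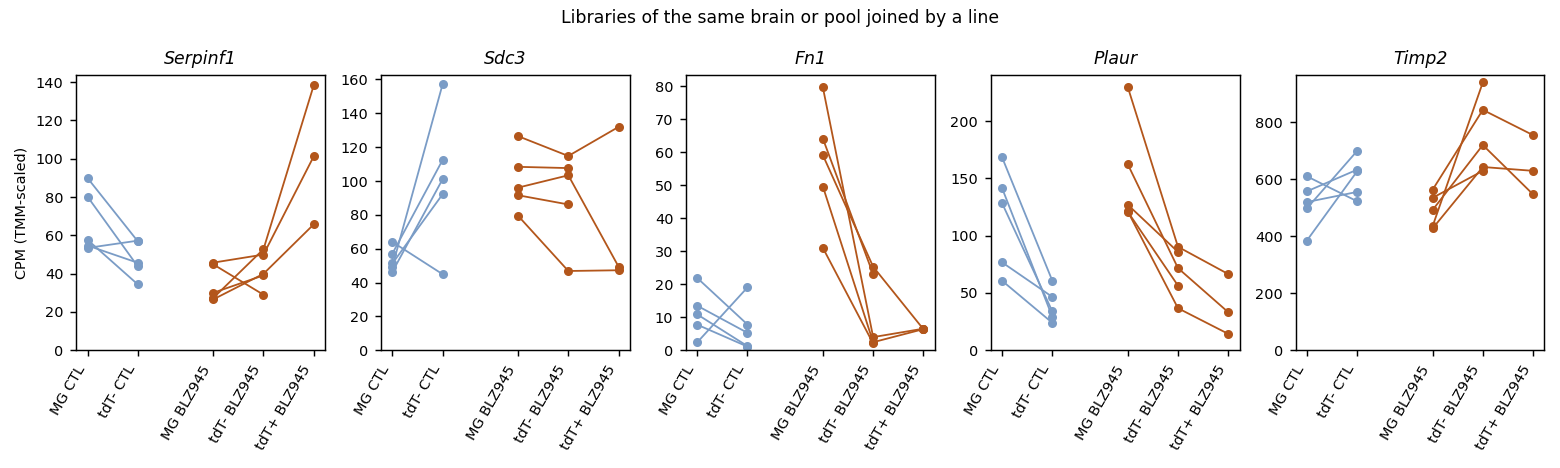
CPM of 5 genes with a line for each brain or pool (5 CTL, 5 BLZ945, of which 3 have a tdT+ library). Serpinf1 ends highest in tdT+ cells in all 3, Fn1 and Plaur drop from MG to tdT- in all 5 BLZ945 lines, and Timp2 rises in all 5.

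Fn1 (chromosome 1, 71585520 to 71653200, minus strand) encodes fibronectin, which links integrins to collagen and fibrin. In MG CTL it was 10.9, 7.74, 13.5, 21.9 and 2.39 CPM (M1, F1, F2, M2 and F3) and in MG BLZ945 64.1, 59.1, 79.6, 31.0 and 49.6 CPM (F1, F2, F3, M1 and M2). Each BLZ945 library exceeded each CTL library, by 4.94-fold in the fit (log2 fold change 2.30, 95% interval 1.48 to 3.12, SE 0.39, adjusted p = 0.0124). The call held in 10 of 10 fits that left out a library each and was lost with a model of all 23 libraries (adjusted p = 0.539). In sdCAMs Fn1 was lower than in MG of BLZ945 mice, by a log2 fold change of -2.31 for tdT- (SE 0.76, adjusted p = 0.0236) and -3.13 for tdT+ cells (SE 0.81, adjusted p = 0.0131). In CTL mice the difference was -0.73 (SE 0.74, adjusted p = 0.548), and the interaction was -1.58 (SE 1.04, adjusted p = 0.715). Fn1 was lower in tdT- cells than in MG in 4 of 5 CTL mice, F3 being the exception, and without tdT- CTL F3 these values were -1.58 (adjusted p = 0.152) and -0.73 (adjusted p = 0.877). With mouse or pool as a block, the difference of tdT- cells from MG was -1.38 in CTL (adjusted p = 0.269) and -3.03 in BLZ945 (adjusted p = 0.0125).

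Fn1 varied most among tdT- libraries. It was 23.04, 25.3, 3.98, 2.05 and 2.43 CPM in BLZ945 (F1, F2, F3, M1 and M2) and 1.24, 1.09, 5.27, 7.79 and 19.0 CPM in CTL (M1, F1, F2, M2 and F3), coefficients of variation of 103% and 107%, whereas the 3 tdT+ libraries lay between 6.37 and 6.53 CPM. High Fn1 is also known from monocytes, and the monocyte markers summed to 217 CPM in tdT- BLZ945 F1 and 22.8 CPM in F2, the 2 libraries with the highest Fn1, and to 100 CPM in M1, the library with the lowest. The sort excluded Ly6C+ cells, to which classical monocytes belong. In MG the same markers summed to 7.50 to 17.2 CPM in CTL and 3.73 to 14.3 CPM in BLZ945. The part of monocytes in the Fn1 values was not tested in either population. Without tdT- BLZ945 F3 the call against MG was lost (log2 fold change -2.10, adjusted p = 0.0552), and without tdT+ F2 that of tdT+ against MG was lost (-3.12, adjusted p = 0.0539).

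Sdc3 (chromosome 4, 130792537 to 130826319, plus strand) encodes syndecan-3, a transmembrane heparan sulfate proteoglycan. In MG CTL it was 57.1, 49.5, 51.3, 46.3 and 64.0 CPM (M1, F1, F2, M2 and F3) and in MG BLZ945 91.6, 79.5, 96.1, 108 and 127 CPM (F1, F2, F3, M1 and M2). The groups were apart, with a log2 fold change of 0.89 (95% interval 0.60 to 1.17, SE 0.13, adjusted p = 0.00665) that held in 10 of 10 fits without a library and was lost with the model of all 23 libraries (adjusted p = 0.6). In tdT- CTL it was 112, 157, 92.2, 101 and 44.9 CPM, higher than in MG of the same mice except in F3, with a log2 fold change of 0.92 (SE 0.25, adjusted p = 0.00929). In BLZ945 mice, tdT- cells (46.8 to 115 CPM) and MG (79.5 to 127 CPM) differed by a log2 value of -0.12 (95% interval -0.64 to 0.40, adjusted p = 0.758). The interaction was -1.04 (SE 0.36, unadjusted p = 0.00826, adjusted p = 0.378). One tdT+ library stood apart, M2 at 132 CPM against 47.3 and 49.4 CPM in F2 and F3, and without it tdT+ cells were lower than MG (log2 fold change -1.06, adjusted p = 0.0358) where the fit with it gave -0.39 (adjusted p = 0.498).

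Tgm2 (chromosome 2, 158116402 to 158146436, minus strand) encodes tissue transglutaminase, which crosslinks fibronectin and other matrix proteins. It was 80.0, 125, 73.2, 149 and 86.9 CPM in MG CTL (M1, F1, F2, M2 and F3) and 46.1, 15.7, 15.1, 27.6 and 9.62 CPM in tdT- CTL. In BLZ945 mice it was 127, 95.9, 229, 126 and 151 CPM in MG (F1, F2, F3, M1 and M2), 55.3, 4.11, 25.9, 16.0 and 57.0 CPM in tdT- and 16.5, 21.5 and 11.7 CPM in tdT+ cells (F2, F3 and M2). All 10 MG libraries lay above all 13 sdCAM libraries. The log2 fold change against MG was -2.17 in CTL (SE 0.50, adjusted p = 0.00223), -2.19 for tdT- in BLZ945 (SE 0.50, adjusted p = 0.00178) and -3.13 for tdT+ in BLZ945 (SE 0.66, adjusted p = 0.0036). In MG the BLZ945 effect was 0.49 (SE 0.23, unadjusted p = 0.0455, adjusted p = 0.368).

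Whether sdCAMs differed after repopulation, and by their reporter, was asked in 3 comparisons that share libraries. Of the 10 members, 0 were called for tdT- BLZ945 against tdT- CTL with edgeR (3 at an unadjusted p under 0.05, 1 with DESeq2), where 0% of all 13076 tested genes were called. For tdT+ against tdT- BLZ945 0 were called (1 unadjusted, 1 with DESeq2, 0.206% of all genes), and for tdT+ BLZ945 against tdT- CTL 0 (2 unadjusted, 2 with DESeq2, 0.283% of all genes, 0.0688% higher and 0.214% lower). Members whose groups did not overlap numbered 0, 1 and 3, against 1.84%, 3.4% and 8.16% of all genes. They were Serpinf1, and in the last comparison also Adam33 and Plau, the latter at a log2 difference of -1.01 (SE 0.47, adjusted p = 0.673). Without tdT- BLZ945 F1, the library rich in monocyte markers, the first count was again 0. The common coefficient of biological variation was 0.704 in the sdCAM model and 0.253 in the MG model.

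**Figure D3:**
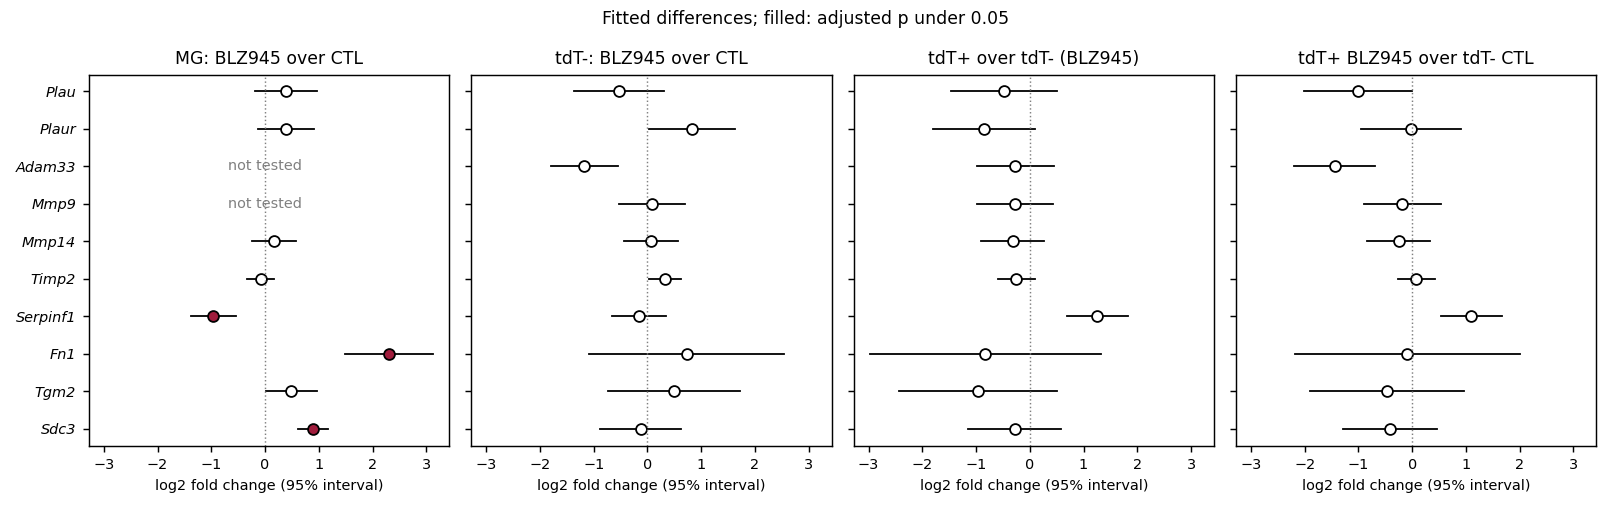
Fitted log2 fold changes with 95% intervals for the 10 genes in 4 comparisons on a shared axis, filled where the edgeR adjusted p was under 0.05. Filled points occur in MG only, for Serpinf1, Fn1 and Sdc3, and the sdCAM intervals are wider.

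Between sdCAMs and MG, groups did not overlap for 5 of 10 members in CTL (26.8% of all tested genes), 6 in tdT- BLZ945 (22%) and 7 in tdT+ BLZ945 (34.8%). Calls in the higher direction numbered 4, 3 and 3 (15.3%, 18.3% and 11.8% of all genes) and in the lower direction 2, 3 and 3 (10.3%, 14.1% and 7.05%). Adam33 and Mmp9, which had to differ, were 2 of the higher calls in each. Over genes that passed the count filter within MG alone and within sdCAMs alone, a restriction chosen after seeing the data, 2, 1 and 1 of 8 members were higher (12.4%, 15.6% and 10% of all such genes) and 2, 3 and 3 lower (10.8%, 14.6% and 7.48%). With mouse or pool as a block, no member's call in these 3 comparisons changed.

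**Figure D4:**
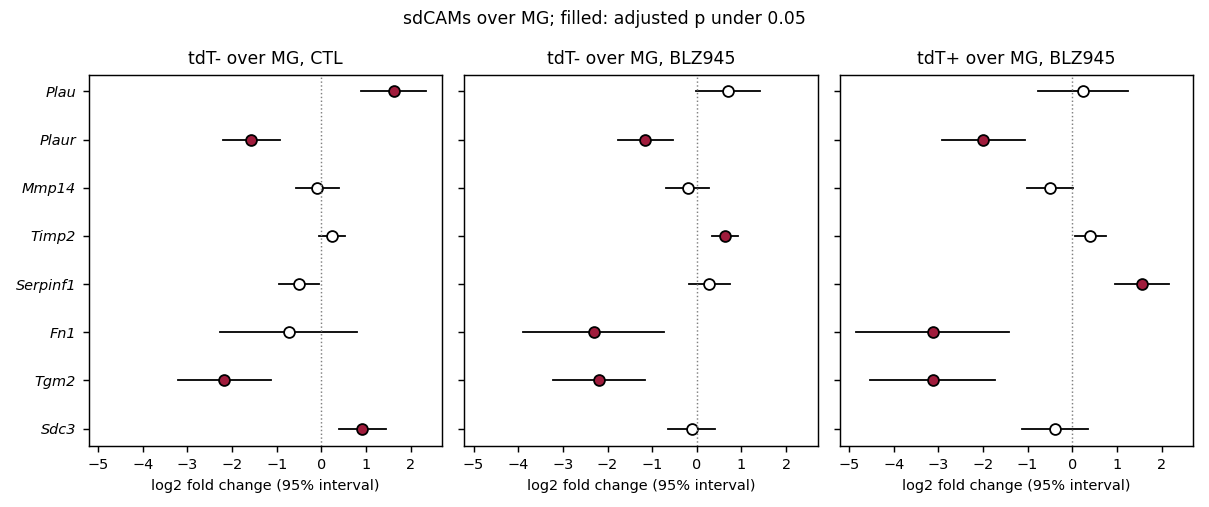
Fitted log2 fold changes of sdCAMs over MG with 95% intervals for 8 genes on a shared axis, filled where the adjusted p was under 0.05. Adam33 and Mmp9 are left out, since their MG levels were near 0. Plaur and Tgm2 lie left of 0 in all 3 panels, and Serpinf1 is filled in the tdT+ panel only, a difference between panels that was not tested.

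The members were set beside 135 other genes of the matrix and of extracellular proteolysis, in 6 lists. In MG after BLZ945, 4 of the 70 tested were higher and 0 lower, with a median log2 fold change of 0.08 beside 0.00 over all tested genes, of which 0.249% were higher and 0.16% lower. St14, the gene of the membrane serine protease matriptase, rose by 1.18 on the log2 scale (SE 0.18, adjusted p = 0.00848), from 11.8 to 21.6 CPM in CTL to 30.4 to 47.6 CPM in BLZ945. Fgl2, a fibrinogen-like prothrombinase gene, rose by 1.01 (SE 0.21, adjusted p = 0.048), and Cd36, the gene of a scavenger receptor that binds thrombospondin, by 2.38 (SE 0.50, adjusted p = 0.0497). The remaining one, Cspg4, was below the level set for naming and is named because the count is small.

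In the sdCAM comparisons of tdT+ cells, 2 of the 99 tested list genes were lower and 0 higher, against tdT- BLZ945 (0.191% lower and 0.0153% higher over all tested genes) as well as against tdT- CTL (0.214% and 0.0688%). Ecm1, the gene of a secreted matrix glycoprotein, was 63.8, 39.0 and 39.8 CPM in tdT+ cells, below all tdT- BLZ945 (88.1 to 217 CPM) and tdT- CTL libraries (134 to 214 CPM). Its log2 fold changes were -1.64 (SE 0.30, adjusted p = 0.0383) and -1.77 (SE 0.31, adjusted p = 0.015). Postn, which encodes the matricellular protein periostin, had 0 counts in all 3 tdT+ libraries and 3.24 to 39.3 CPM in tdT- BLZ945, so it was at least 46.5-fold lower by the floor of 3 counts per library (adjusted p = 0.014). Against tdT- CTL (5.81 to 20.03 CPM) it was at least 34.9-fold lower (adjusted p = 0.0121). Postn passed the count filter through the tdT- groups alone and so had to differ, and no difference is read from its tests. Of the 2 lower genes, Ecm1 had counts in all 3 tdT+ libraries. The 6 fibroblast markers summed to 17.8, 23.5 and 22.1 CPM in tdT+ cells (F2, F3 and M2), below the 62.8, 43.9 and 42.8 CPM of tdT- cells of the same brains or pools and below every tdT- CTL library (25.3 to 32.9 CPM). Their part in the Ecm1 and Postn values was not tested. In tdT- BLZ945 against CTL 0 of 99 were called with edgeR, with 7 at an unadjusted p under 0.05.

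Between sdCAMs and MG, the list of matrix glycoproteins and collagens had 13 genes higher and 1 lower of 29 tested in CTL mice and a median log2 fold change of 1.61, beside -0.01 over all tested genes. Over all tested genes, 15.3% were higher and 10.3% lower in CTL, 18.3% and 14.1% for tdT- cells in BLZ945 mice, and 11.8% and 7.05% for tdT+ cells, which are the shares to read the list counts against. For tdT- cells in BLZ945 mice these were 12 higher and 1 lower of 29 (median 2.14) and for tdT+ cells 7 higher and 3 lower of 30 (median 2.07). A gene near 0 in one population entered these tests through the other and had to differ. Over the 17 genes that passed the count filter within each population alone, 8 were higher and 1 lower in CTL, 7 and 1 for tdT- cells in BLZ945, and 6 and 3 for tdT+ cells. Over all genes past this filter, 12.4% were higher and 10.8% lower in CTL. The shares were 15.6% and 14.6% for tdT- in BLZ945 and 10% and 7.48% for tdT+ cells. They are the ones to read filtered counts against, here and below. Dcn, the gene of the small proteoglycan decorin, was among those that entered through sdCAMs, at 7 counts in all MG CTL and 2 in all MG BLZ945 libraries against 11.9 to 22.5 CPM in tdT- CTL. The fibroblast marker list, which holds Dcn too, moved with it, at 0.153 to 2.38 CPM in MG and 15.5 to 62.8 CPM in sdCAM libraries, and its part was not tested. Metalloproteinases other than the members counted 4 higher and 5 lower of 17 in CTL, 2 and 7 for tdT- in BLZ945, and 2 and 3 for tdT+ cells. Past the filter within each population they counted 2 and 4 of 12 in CTL, 1 and 5 for tdT- in BLZ945, and 1 and 3 for tdT+ cells. Mmp12, the macrophage elastase, and Adamts1, a protease of proteoglycans, were among the lower ones in CTL, by -5.85 (SE 1.08, adjusted p = 0.000268) and -5.66 (SE 0.79, adjusted p = 8.45e-06).

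The plasminogen system list counted 3 higher and 4 lower of 11 in both tdT- comparisons and 3 and 3 in tdT+ cells, with the shares over all genes as given above. Thbd, the gene of the thrombin receptor thrombomodulin, was higher by 7.06 (SE 0.80, adjusted p = 4.94e-07) in CTL, but it entered through sdCAMs alone (4473 counts in tdT- CTL against 33 in MG CTL) and had to differ. Without it 2 genes of the list were higher in each comparison. The crosslinking list counted 2 higher and 1 lower of 9 in CTL, 3 and 5 for tdT- in BLZ945, and 1 and 1 for tdT+ cells, among the higher ones in CTL F13a1, the clotting factor that crosslinks fibrin, by 9.22 (SE 0.59, adjusted p = 7.4e-11). The lower gene in CTL entered through MG alone and had to differ. Past the filter within each population the list counted 2 and 0 of 8 in CTL. For tdT- in BLZ945 it counted 3 and 4, and for tdT+ cells 1 and 1. Inhibitors counted 3 higher and 3 lower of 12 in CTL, among the lower ones Spint1, the inhibitor of matriptase, by -6.44 (SE 0.65, adjusted p = 9.35e-08). Some of the higher ones entered through sdCAMs alone and had to differ. Past the filter within each population, 1 was higher and 3 lower of 7 in CTL. In BLZ945 mice the counts were 4 and 3 of 12 for tdT- and 1 and 3 of 14 for tdT+ cells. Past the filter these were 2 and 3 of 7, and 1 and 3 of 7. Surface proteoglycans and matrix receptors counted 7 higher and 7 lower of 17 in CTL, among them Lyve1, a hyaluronan receptor and sdCAM marker, which was higher by 10.90 (SE 0.60, adjusted p = 7.06e-12), and Itgb3, an integrin subunit, lower by -6.70 (SE 1.08, adjusted p = 5.45e-05). Both had to differ, since Lyve1 entered through sdCAMs alone and Itgb3 through MG alone (16 counts in tdT- CTL). Over the 11 genes of that list past the filter within each population, 3 were higher and 6 lower in CTL (12.4% and 10.8% of all such genes). Itgb3 had 0 counts in all 3 tdT+ libraries, at least 119-fold below MG BLZ945 by the floor of 3 counts per library. Over all 135 genes the counts were 32 higher and 21 lower of 95 in CTL, 29 and 27 of 95 for tdT- in BLZ945, and 19 and 19 of 99 for tdT+ cells. These totals include genes that entered through sdCAMs or MG alone and had to differ.

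**Figure D5:**
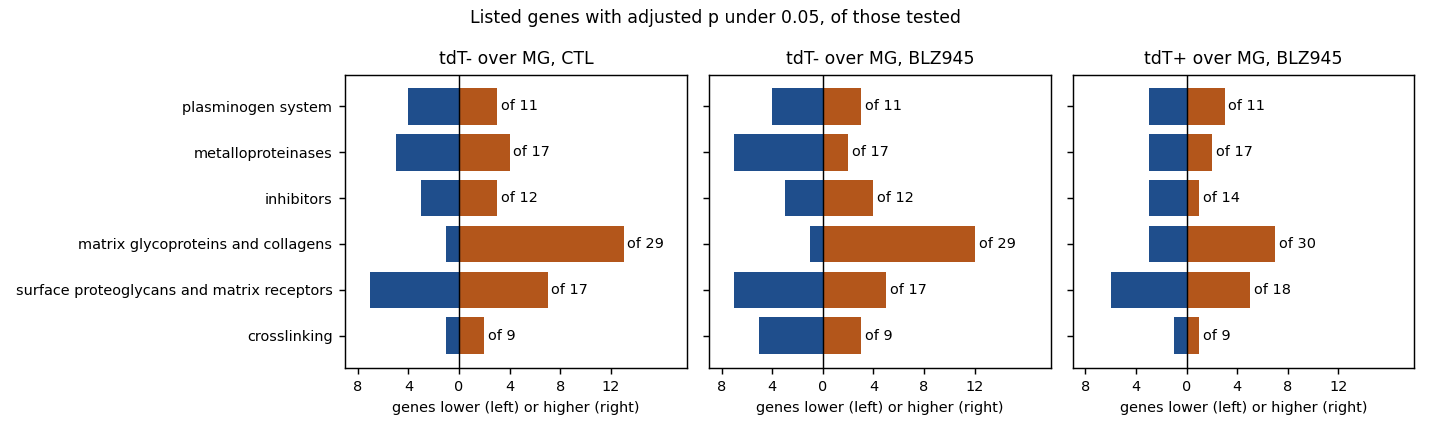
Genes of the 6 lists with an adjusted p under 0.05, higher (right) or lower (left) in sdCAMs than in MG, with the number tested beside each bar. The matrix glycoproteins and collagens show 13, 12 and 7 higher genes, against 1, 1 and 3 lower. The bars include genes that entered through sdCAMs or MG alone and had to differ.

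The genes whose log2(CPM + 1) followed each member most closely over the 23 libraries, among 7313 candidates, are given as a description, since all libraries share the split into MG and sdCAMs. Mmp9 ran with Ccl8 and with the sdCAM marker Folr2 (Pearson r = 0.992 each), Adam33 with Chp2 (r = 0.987) and Lrp6 (r = 0.984), and Tgm2 with Il1a (r = 0.936) and Itgav (r = 0.93). Plaur ran with Ociad1 (r = 0.881) and Rgs1 (r = 0.866), Plau with Ddx60 (r = 0.879), Sdc3 with Cmpk2 (r = 0.874) and Timp2 with Cuedc2 (r = 0.84). The closest genes of Serpinf1 (Dleu2, r = 0.741), Mmp14 (Rap2a, r = 0.738) and Fn1 (Snhg5, r = 0.728) were less alike.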

How the data were processed

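RNA of sorted cells was amplified by PCR without molecular identifiers (SMART-Seq mRNA LP) and sequenced on an Illumina NextSeq, per the labels. The deposited values are whole-number read counts per gene, made by the authors with bcl2fastq 2.20, STAR 2.7.11a and featureCounts 2.0.6, as the submitters' processing notes name them; which mouse build was used is not clear, so positions here come from GENCODE M21 on GRCm38. How reads shared by several genes were counted was not stated.

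Tests used edgeR 4.0.16 (R 4.3.3; TMM, filterByExpr, quasi-likelihood test, Benjamini-Hochberg over all tested genes, called under 0.05). Models held 10 MG libraries, 13 sdCAM libraries, 20 MG and tdT- libraries, or 13 BLZ945 libraries for tdT+ cells against MG. Alternatives were DESeq2 1.42.0, RLE factors, no filter, at least 10 counts in every library, a model of all 23 libraries, the sex letter as covariate, a replicate block and leaving out each library. Intervals of ratios of pooled counts are 95% exact binomial (scipy 1.17.1). Members and lists were chosen with earlier results of these data known. The microglia and monocyte marker sums each leave out 1 gene of the list fixed at the start, which is not reported here. From the lists, each comparison names at most 4 called genes in each direction with an average log2 CPM of at least 3, and each member at most 2 alike genes with at least 4, leaving out predicted genes.

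Same-labelled libraries of a treatment came from the same mouse or pool, and their deviations correlated at a mean of 0.169 (MG and tdT- CTL), 0.144 (MG and tdT- BLZ945), 0.11 (tdT- and tdT+) and 0.209 (MG and tdT+). Between treatments the labels name different mice. In simulated counts with the MG spread (11084 genes), 79% of 2-fold and 99% of 4-fold changes were recovered, and with the sdCAM spread for tdT- BLZ945 against CTL (12631 genes) 21% and 55%. Each simulation changed 200 genes, none of low count, whereas the fits of the data called 46 and 0 genes. Recovery depends on that number, and members near 0 are not covered. P-values measure the spread between these libraries.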

Additional observations from a re-analysis of the deposited data

Results flagged for a closer look

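Of 40 groups of 5 libraries checked for a library far from the rest, 3 were flagged, and all 3 were in MG, at 17 counts or fewer. The rule flags about 1 in 20 groups of normally distributed values, a rate that does not hold for counts near 0. A group with 4 libraries at 0 and 1 above 0 is always flagged, as were Adam33 in MG CTL and Mmp9 in MG BLZ945. Adam33 was at 0.0849 CPM (1 count) in MG CTL M1 and at 0 in the other 4. Mmp9 was at 1.44 CPM (17 counts) in MG CTL M1, against 0 to 0.0911 CPM in the others, and at 0.424 CPM (5 counts) in MG BLZ945 F3, against 0 in the others. No explanation for these counts was tested.

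The interaction test of the BLZ945 effect on Adam33, tdT- sdCAMs minus MG, gave -5.23 on the log2 scale (SE 0.94, edgeR adjusted p = 0.0456). Adam33 entered this test through its sdCAM counts, so no difference is read from it. The call was lost with mouse or pool as a block (adjusted p = 0.219), with sex as covariate (0.068), in the model of all 23 libraries (0.0528) and in all but 7 of 20 fits that left out a library each. It rests on 26 MG BLZ945 counts and 1 MG CTL count.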

How the results depend on the processing

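Each fit was repeated under 7 other settings and without each library. Of the members' log2 fold changes, 516 kept direction and side of the threshold under the other settings, 9 reversed, 6 passed and 7 no longer passed. Without a library these were 770, 26, 3 and 21. With the sex covariate 2 members were called for BLZ945 in MG. In the model of all 23 libraries, 0 members were called for BLZ945 in MG, 1 for tdT+ against tdT- BLZ945, 1 for tdT+ against tdT- CTL and 0 for the interaction. DESeq2 called 1 for tdT- BLZ945 against CTL, 1 for tdT+ against tdT- BLZ945 and 2 for tdT+ against tdT- CTL. The interaction had 0 called with at least 10 counts in every library (which removes Adam33 and Mmp9), with the sex covariate and with the replicate block, and the block changed no other call. Over all genes, calls for BLZ945 in MG were 5.91 times as many with DESeq2 and went from 46 to 193 without a filter, 89 with the block and 12 in the 23-library model. For tdT- BLZ945 against CTL they went from 0 to 69 with DESeq2 and 29 in the 23-library model, for tdT+ against tdT- BLZ945 from 27 to 188 and 82, for tdT+ against tdT- CTL from 37 to 228 and 121 (61 without a filter), and for the interaction from 5 to 110 and 1 (9 without a filter, 0 with at least 10 counts, 1 each with the sex covariate and the block). The cause was not tested.

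Direction reversed as follows, on the log2 scale. With the replicate block, Fn1 in tdT+ against tdT- BLZ945 was 0.0732 and Tgm2 in tdT+ against tdT- CTL was 0.0597. In the latter comparison Fn1 was 0.016 with the sex covariate, and Plaur was 0.0027 with DESeq2, 0.00345 with RLE factors and 0.039 with the sex covariate. The Tgm2 interaction was 0.0066 with DESeq2, 0.00400 with RLE factors and 0.036 with the sex covariate. Scaled by library totals only, Fn1 in tdT+ cells averaged 6.17 CPM. Without a library each, members called ranged from 0 to 1 for tdT+ against tdT- BLZ945 and from 0 to 1 for the interaction. For tdT- BLZ945 against CTL, Sdc3 ranged from -0.32 to 0.0888, Mmp14 from -0.13 to 0.20 and Mmp9 from -0.13 to 0.24. For tdT+ against tdT- CTL, Fn1 ranged from -0.37 to 0.74, Plaur from -0.71 to 0.37 and Timp2 from -0.0411 to 0.18. Mmp14 in tdT- against MG CTL ranged from -0.23 to 0.12 and Sdc3 in tdT- against MG BLZ945 from -0.22 to 0.0382. The interaction ranged from -0.33 to 0.0220 for Mmp14, from -1.53 to 4.91 for Mmp9 and from -0.35 to 0.40 for Tgm2. The ratios of pooled counts without the MG library with most counts were chosen after seeing the data.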
